A study of Mus musculus with 4 samples.

Results

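The guanylate-binding proteins (GBPs) are a family of interferon-inducible GTPases related to dynamin. The 9 members Gbp2, Gbp3, Gbp4, Gbp5, Gbp6, Gbp7, Gbp8, Gbp9 and Gbp10 were selected by their gene symbols, and each was read by 1 probe. They stood for 9 of the 19316 genes, and 9 of the 23473 probes, with a value on a mouse oligonucleotide array. They were put together with earlier results of the same arrays in view. In those results their signal was higher after 24 h than after 6 h in culture. The differences of these members with time are therefore given below as a description without a test.

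E0771 cells, a mouse breast carcinoma line, were exposed to 30 ng/ml IL-26 or to medium alone (vehicle). RNA was taken at 24 h or at 6 h, labelled with Cy5 and hybridised, 1 colour per array. There were 4 arrays, namely IL-26 for 24 h, vehicle for 24 h, IL-26 for 6 h and vehicle for 6 h, with 1 array for each and no replicate. IL-26 is a cytokine related to IL-10, and the study used these arrays to look for receptors and signalling on which it acts in E0771 cells. Because each combination had 1 array, the time in culture, the RNA preparation and the array itself cannot be told apart at any single comparison.

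GBPs are cytosolic proteins that cells make in quantity after exposure to interferon. Interferon receptors signal through Janus kinases to transcription factors that bind gamma-activated sites and interferon-stimulated response elements near the genes. The GBPs then gather on the membranes around intracellular bacteria and parasites, and several of them help to open those vacuoles or to start inflammasome signalling. In mice the genes lie in 2 clusters, and tumour cells as well as macrophages can express them.

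The intensities of the median gene spot were close on the 4 arrays, between 78.0 and 84.4. The detection limit, the mean of 384 blank spots plus 2 SD, lay between 51.8 and 58.1, and between 32.3% and 52.1% of the 96 negative control spots exceeded it, so a signal just above the limit cannot be told from non-specific binding. Of the genes with a value, 18372 were above the limit on at least 1 array and entered the comparisons. Vim, an intermediate filament of mesenchymal cells, and Krt8, a keratin of simple epithelia, were bright on all arrays, while the other 4 epithelial markers (Epcam, Krt18, Krt19 and Cdh1) stayed between 59.4 and 74.3. Of the other mesenchymal markers, Fn1, Col1a1 and Thy1 stayed between 51.7 and 67.1, and Sparc read 511 with IL-26 and 572 with vehicle at 24 h, against 1154 with IL-26 and 1469 with vehicle at 6 h. Of 7 leukocyte markers on the array, 5, 4, 6 and 6 were above the limit on the IL-26 24 h, vehicle 24 h, IL-26 6 h and vehicle 6 h arrays. Their summed intensity was 815 and 809 on the 24 h arrays with IL-26 and vehicle, and 888 and 934 on the 6 h arrays with IL-26 and vehicle. Ptprc, which encodes the pan-leukocyte antigen CD45, measured between 55.2 and 60.6, Itgam was not detected on any array, and Cd68, a lysosomal protein gene, measured between 333 and 421. Lyz2 measured between 126 and 184 and Csf1r between 106 and 112, both above the limit on all 4 arrays. Adgre1 and Cd3e stayed between 52.1 and 57.7. Most of the leukocyte sum came from Cd68 and Lyz2, and the part of any other cells in the GBP differences was not tested. Of 4 endothelial markers, between 2 and 3 were above the limit. On arrays of whole cultures, a change in the number of cells that express a gene and a change in RNA per cell cannot be told apart.

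All 9 GBPs were above the detection limit on all 4 arrays. Each of the 9 was brighter on both 24 h arrays than on both 6 h arrays, an arrangement shown by 29.7% of the detected genes. After normexp correction and quantile normalisation, 6 of the 9 were at least 2-fold higher at 24 h than at 6 h with IL-26, against 0.8% of all detected genes, and the same 6 were at least 2-fold higher at 24 h in vehicle, against 0.816%. These were Gbp2, Gbp3, Gbp6, Gbp8, Gbp9 and Gbp10, and 0.648% of detected genes were past 2-fold in both treatments. At the lower limit of 1.5-fold, 8 of 9 were past it with IL-26 (2.87% of detected genes) and 8 of 9 in vehicle (2.6%). The median difference of the family was 1.49 on the log2 scale with IL-26 and 1.58 in vehicle, beside a median of -0.0015 and -0.0052 for all detected genes. Since the family was selected with this difference known, nothing is read from these shares.

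**Figure D1:**
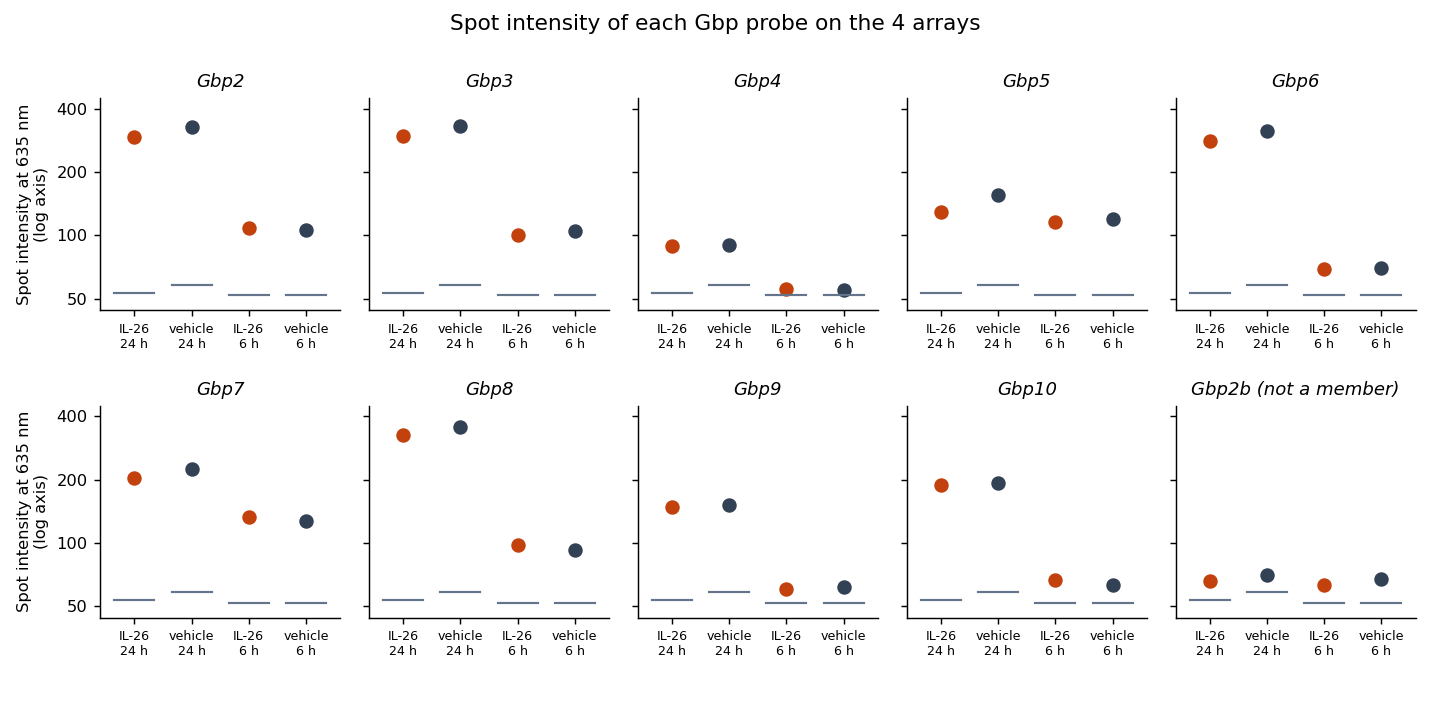
Spot intensity (log axis, scanner units) of each GBP probe and of Gbp2b on the 4 arrays, 1 point per array. Horizontal bars mark the detection limit of each array. All members sit higher on both 24 h arrays, and Gbp4 at 6 h lies just above the limit.

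Gbp2, Gbp3 and Gbp9 are among the members that have been seen on the vacuole of the parasite Toxoplasma in mouse cells. Gbp2 carries a C-terminal lipid anchor. The Gbp2 probe read 295 with IL-26 and 328 with vehicle at 24 h, against 108 with IL-26 and 106 with vehicle at 6 h. Its normalised difference with time was 1.49 with IL-26 and 1.65 with vehicle on the log2 scale, that is 2.80-fold and 3.13-fold. Gbp3 had 297 with IL-26 and 331 with vehicle at 24 h, against 101 with IL-26 and 105 with vehicle at 6 h. The 24 h and 6 h readings of both genes were thus far apart, and the treatments within a time nearly overlapped. Gbp3 was 3.02-fold higher at 24 h with IL-26 and 3.19-fold higher in vehicle. After subtraction of the local background around each spot, its log2 difference was 0.55 with IL-26 and 1.02 in vehicle. That of Gbp2 was then 1.10 with IL-26 and 1.26 in vehicle.

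Gbp9 was close to the limit at 6 h. Its probe read 148 with IL-26 and 152 with vehicle at 24 h, against 60.3 with IL-26 and 61.8 with vehicle at 6 h. The 6 h readings were 1.16 and 1.19 times the detection limit with IL-26 and vehicle, and on the IL-26 6 h array 2 of the 96 negative controls were as bright or brighter. The difference with time was 1.34 on the log2 scale with IL-26 and 1.25 in vehicle. For such dim probes the offset of 50 added before the logarithm shrinks the fold. The part of the Gbp9 signal above the mean blank was 9.54 times as large at 24 h with IL-26 and 7.81 times in vehicle. After subtraction of the local background around each spot, however, the Gbp9 log2 difference was only 0.40 with IL-26 and 0.17 in vehicle.

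Gbp6, Gbp7 and Gbp10 were among the GBPs whose depletion weakened the control of bacteria in mouse macrophages. Gbp6 had the widest difference of the family. Its probe read 281 with IL-26 and 313 with vehicle at 24 h, against 69.1 with IL-26 and 69.9 with vehicle at 6 h. The normalised difference was 2.08 with IL-26 and 2.15 in vehicle, and Gbp6 held position 7 among the 18372 detected genes when both treatments were averaged. Its signal above the blank was 12.2 times as large at 24 h with IL-26 and 12.7 times in vehicle. After subtraction of local background, its log2 difference was 1.43 with IL-26 and 1.55 in vehicle.

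Gbp10 is a close relative of Gbp6, and the probe sequences were not used here, so that signal from one reaching the probe of the other cannot be told apart. Its probe read 189 with IL-26 and 192 with vehicle at 24 h, against 66.9 with IL-26 and 62.7 with vehicle at 6 h. The difference with time was 1.54 with IL-26 and 1.58 in vehicle, but with the local background around each spot subtracted it was 0.24 with IL-26 and -0.13 in vehicle. Gbp7, a member linked to assembly of the phagocyte oxidase, differed less with time. It had 204 with IL-26 and 224 with vehicle at 24 h, against 133 with IL-26 and 127 with vehicle at 6 h. Its difference was 0.61 with IL-26 and 0.82 in vehicle, and 0.51 and 0.09 after subtraction of local background.

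The Gbp8 probe read 328 with IL-26 and 355 with vehicle at 24 h, against 97.8 with IL-26 and 92.1 with vehicle at 6 h. Gbp8 was 3.47-fold higher at 24 h with IL-26 and 3.89-fold higher in vehicle, next to Gbp6 in size. With local background subtracted, its log2 difference was 0.74 with IL-26 and -0.43 in vehicle, the other direction. Gbp4 has been described as a brake on the interferon regulatory factor Irf7. It had 89.2 with IL-26 and 90.2 with vehicle at 24 h, against 55.3 with IL-26 and 55.1 with vehicle at 6 h. The 6 h readings of Gbp4 were only 1.07 and 1.06 times the limit with IL-26 and vehicle, and 3 of the 96 negative controls reached its signal on the IL-26 6 h array. Its normalised difference of 0.72 with IL-26 and 0.63 in vehicle therefore starts from a signal close to non-specific binding, and with local background subtracted it was 0.04 with IL-26 and -0.08 in vehicle.

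Gbp5 differed least. This member is best known for promoting assembly of the NLRP3 inflammasome. The probe read 129 with IL-26 and 155 with vehicle at 24 h, against 116 with IL-26 and 119 with vehicle at 6 h. Its difference with time was 0.15 with IL-26 and 0.36 in vehicle on the log2 scale, that is 1.11-fold and 1.29-fold. Both values lay within the range of most genes, whose 5th to 95th percentile ran between -0.42 and 0.44 with IL-26 and between -0.39 and 0.42 in vehicle. Gbp5 held position 1861 in the averaged order, whereas the other 8 members were among the first 5%.

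**Figure D2:**
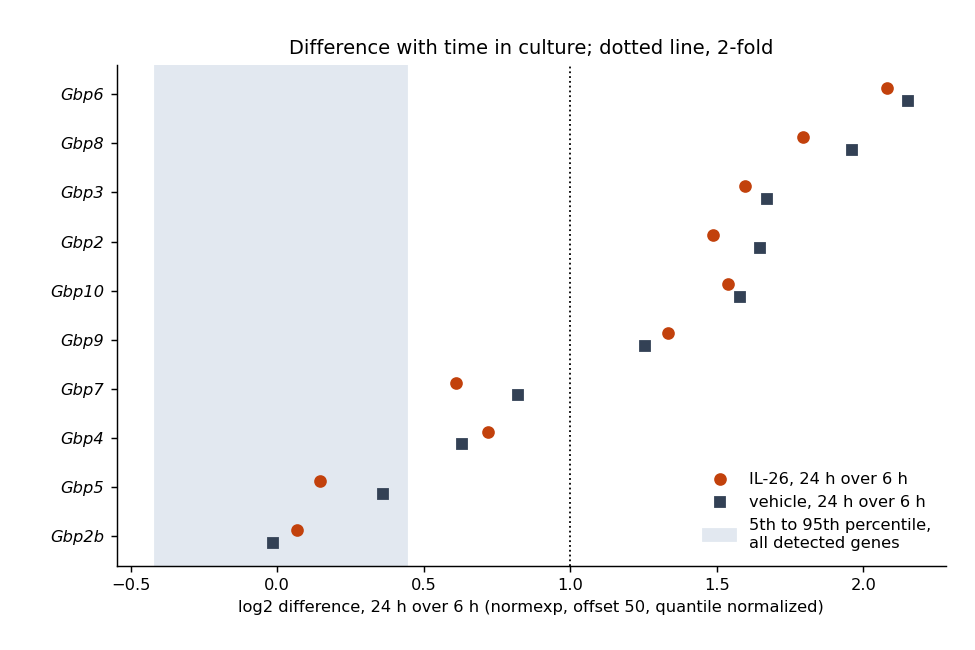
Difference between 24 h and 6 h on the log2 scale for each GBP and for Gbp2b, with circles for IL-26 and squares for vehicle (1 array per group). The shaded band is the 5th to 95th percentile of all detected genes with IL-26, which encloses that in vehicle, and the dotted line marks 2-fold. Gbp6 and Gbp8 lie farthest to the right, and Gbp5 and Gbp2b lie within the band.

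In the RefSeq annotation of the mouse genome, Gbp5, Gbp7, Gbp3 and Gbp2 follow each other on chromosome 3, with Gbp2b between Gbp3 and Gbp2. Gbp8, Gbp9, Gbp4, Gbp10 and Gbp6 follow each other on chromosome 5. Averaged over both treatments, the 4 members on chromosome 3 had a median difference of 1.14 with a range of 0.25 to 1.63, and the 5 on chromosome 5 had a median of 1.56 with a range of 0.67 to 2.12. The ranges overlapped, and on chromosome 3 Gbp5 and Gbp7, at one end of the cluster, had smaller differences than Gbp3 and Gbp2. Gbp2b, which is no member of the selected family and was added after its values were seen, read 66.1 with IL-26 and 70.5 with vehicle at 24 h, against 63.3 with IL-26 and 67.1 with vehicle at 6 h. Its neighbours Gbp3 and Gbp2 were both past 2-fold, and its own difference with time was 0.07 with IL-26 and -0.01 in vehicle.

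RefSeq promoter windows (build GRCm38.p6, 250 bases before to 50 bases after the transcription start) were at hand for 4 of the 9 members, all on chromosome 3. They are printed because these genes lie side by side yet ranged widely in their difference with time, and Gbp2b is printed as the neighbour whose signal differed little. Capitals mark matches on either strand to the interferon-stimulated response element, searched as GAAA, any pair of bases and GAAA again, and to the gamma-activated site, searched as TTCNNNGAA.
Gbp2 chr3:142620413-142620712 plus strand: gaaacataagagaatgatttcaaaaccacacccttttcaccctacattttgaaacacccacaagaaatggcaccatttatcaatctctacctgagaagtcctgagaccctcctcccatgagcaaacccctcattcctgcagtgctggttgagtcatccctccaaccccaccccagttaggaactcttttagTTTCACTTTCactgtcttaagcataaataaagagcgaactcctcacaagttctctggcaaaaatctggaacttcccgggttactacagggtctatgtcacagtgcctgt
Gbp3 chr3:142559794-142560093 plus strand: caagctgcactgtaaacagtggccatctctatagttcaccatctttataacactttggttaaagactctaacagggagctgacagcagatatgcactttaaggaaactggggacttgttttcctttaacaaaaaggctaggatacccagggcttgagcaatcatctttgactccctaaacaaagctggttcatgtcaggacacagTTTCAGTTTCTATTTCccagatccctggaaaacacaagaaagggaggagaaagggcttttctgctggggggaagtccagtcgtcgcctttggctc
Gbp7 chr3:142530086-142530385 plus strand: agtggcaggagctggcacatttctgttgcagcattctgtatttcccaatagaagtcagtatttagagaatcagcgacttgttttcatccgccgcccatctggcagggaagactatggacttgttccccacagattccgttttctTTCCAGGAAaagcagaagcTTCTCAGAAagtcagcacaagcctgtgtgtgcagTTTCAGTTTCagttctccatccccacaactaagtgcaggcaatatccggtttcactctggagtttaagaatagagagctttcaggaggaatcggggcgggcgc
Gbp5 chr3:142496684-142496983 plus strand: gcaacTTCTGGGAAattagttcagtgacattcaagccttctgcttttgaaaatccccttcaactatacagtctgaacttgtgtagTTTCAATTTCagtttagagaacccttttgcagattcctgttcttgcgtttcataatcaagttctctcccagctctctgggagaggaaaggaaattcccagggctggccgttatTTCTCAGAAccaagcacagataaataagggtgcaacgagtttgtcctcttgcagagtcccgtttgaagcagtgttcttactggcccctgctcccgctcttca
Gbp2b chr3:142594597-142594896 plus strand: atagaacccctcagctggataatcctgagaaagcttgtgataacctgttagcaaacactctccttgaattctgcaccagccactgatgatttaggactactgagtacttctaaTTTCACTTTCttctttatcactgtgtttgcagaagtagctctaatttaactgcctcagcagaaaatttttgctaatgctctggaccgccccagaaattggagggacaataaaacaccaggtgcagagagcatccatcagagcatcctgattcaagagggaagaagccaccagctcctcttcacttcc

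The interferon-stimulated response element was present in the window of all 4 members. It lay 59 bases before the start in Gbp2, 53 in Gbp7 and 165 in Gbp5. Gbp3 had overlapping matches 45 and 39 bases before its first listed start, and the window of its second listed start held none. The gamma-activated site was found in Gbp7, 106 and 87 bases before the start, and in Gbp5, 245 and 52 bases before it, and not in the windows of Gbp2 or Gbp3. Gbp5 with both elements differed least with time, and Gbp2b carried the same matched letters as Gbp2, 137 bases before its start. A match is a description of letters and not of a bound site.

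Of all 32851 promoter windows, 3.44% held the interferon-stimulated response element and 8.3% the gamma-activated site. Among 111 windows of other genes at least 2-fold higher at 24 h in both treatments, the shares were 20.7% and 9.91%. The 91 genes behind those windows held the response element in 22.0% of cases, against 3.99% of all 27025 genes with a window. These genes were selected by the same contrast as the GBPs and their share is given without a test.

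The question the design put was whether IL-26 altered expression, and for the GBPs no such effect was detected. In limma, with time in the model, 0 of the 9 members passed an adjusted p of 0.05 for IL-26 averaged over both times, where 0.169% of detected genes were called higher and 0.321% lower. At an unadjusted p under 0.05 the count was also 0 of 9, beside 4.77% of detected genes. The estimates ran between -0.07 for Gbp5 and 0.10 for Gbp10 on the log2 scale, with standard errors of 0.042 to 0.083. The lowest unadjusted p was that of Gbp10, 0.151, and its adjusted p was 0.999.

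The intervals around these estimates hold for the correction by blank spots and include no variation between replicate cultures or arrays. Over the 9 members the 95% intervals reached between -0.21 and 0.24, that is, no member's interval extended past 1.16-fold lower or 1.18-fold higher with IL-26. Other values gave estimates beyond these bounds, none of them called. With local background subtracted the IL-26 estimate was 0.52 for Gbp8, -0.41 for Gbp2, -0.33 for Gbp5 and 0.30 for Gbp10, and with the authors' values it was 0.29 for Gbp10. The spread behind the intervals was borrowed across genes, as the 4 arrays left 1 residual degree of freedom. An effect present at 1 time only would be diluted in the average, and the difference between times could not be tested.

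Taken at each time, the IL-26 differences were small. At 24 h the family median was -0.04, and 3 of the 9 members lay above 0, as did 53.9% of all detected genes. At 6 h the median was 0.04, and 8 of the 9 lay above 0, beside 49.4% of all detected genes. The largest size was 0.17 at each time, for Gbp5 at 24 h and Gbp7 at 6 h, and 95% of all detected genes lay within 0.22 at 24 h and 0.20 at 6 h. No member reached 1.5-fold at either time after correction by blank spots, a limit passed upward by 0.0109% and downward by 0.0381% of genes at 24 h and by 0.0544% and 0.0272% at 6 h. With the local background of each spot subtracted, Gbp8 stood at 1.10 at 24 h, where 3.73% of detected genes were past 2-fold, and the family medians were 0.14 at 24 h and -0.07 at 6 h. After correction by blank spots, the higher signal at 24 h was thus present in cells given IL-26 and in cells given medium alone.

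**Figure D3:**
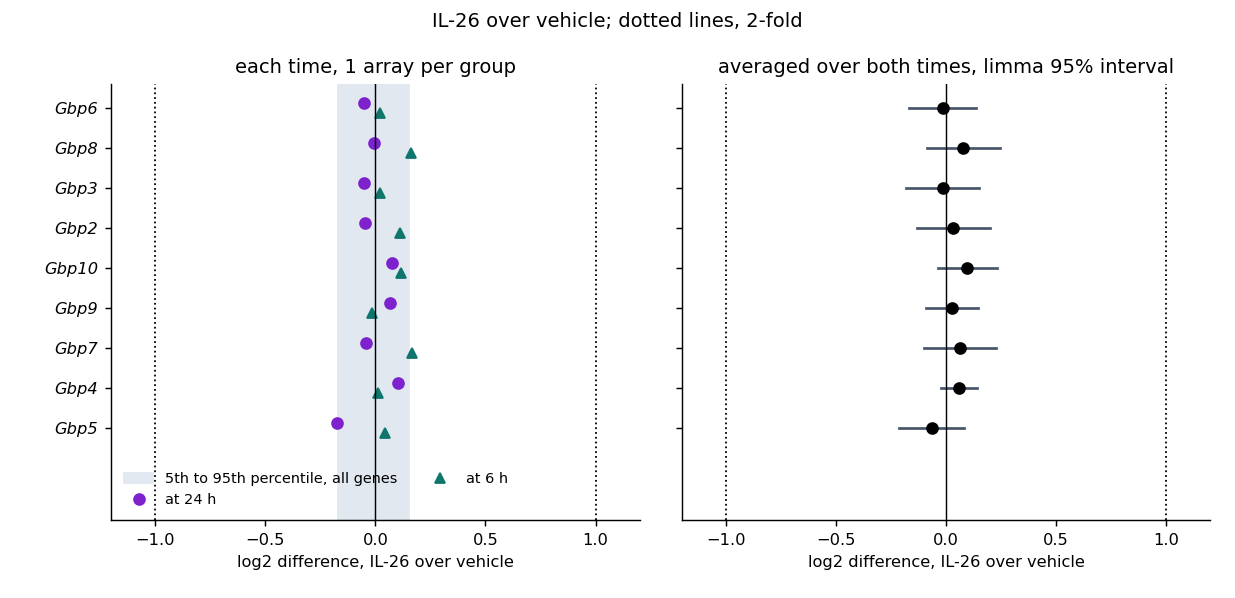
IL-26 over vehicle on the log2 scale for each GBP. On the left, circles give 24 h and triangles 6 h (1 array per group), and the band spans the 5th to 95th percentiles of all detected genes at both times. Gbp5 at 24 h and Gbp7 and Gbp8 at 6 h lie just outside the band. On the right, points give the limma estimate over both times and bars its 95% interval. Every interval includes 0 and none comes near the dotted 2-fold lines, but the intervals include no replicate variation.

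The size of the difference with time depended on how background was taken. The correction used here rests on blank spots that hold no probe. The scanner also gives a local background around each spot, and over all gene spots this followed the spot itself, with Spearman correlations of 0.90 to 0.93 within an array (across spots, which share the array). Around the GBP spots it was higher on both 24 h arrays than on both 6 h arrays for 8 of 9 members. The share of all gene spots with this arrangement was not computed, so nothing is read from that count. The median ratio of local background at 24 h over 6 h was 1.65 with IL-26 and 2.44 in vehicle for the members, 1.02 and 1.11 for all gene spots, and 1.04 and 1.05 for the spots next to the members. As a median over the members, the local background of the spots next to them was thus nearly equal at both times, but single members departed from it both ways. Next to Gbp10 with IL-26 it was 97.7 at 24 h against 73.1 at 6 h, and next to Gbp8 in vehicle 96.8 against 82.6. Next to Gbp4 in vehicle it was 83.9 at 24 h against 94.0 at 6 h.

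Gbp8 showed this most clearly. The local background of its spot was 219 with IL-26 and 366 with vehicle at 24 h, against 72.7 with IL-26 and 73.6 with vehicle at 6 h. On the vehicle 24 h array it exceeded the spot for Gbp8 and Gbp10, and for no other member or array. With local background subtracted, the family median with time was 0.51 with IL-26 and 0.17 in vehicle. Then 2 members, Gbp2 and Gbp6, remained at least 2-fold higher with IL-26 (0.729% of detected genes). In vehicle 3 remained, namely Gbp2, Gbp3 and Gbp6 (3.46%), while Gbp4 at -0.08, Gbp8 at -0.43 and Gbp10 at -0.13 lay below 0. The normalised values of the authors' own table gave larger differences, with a family median of 2.63 with IL-26 and 2.73 in vehicle, and 7 of 9 members at least 2-fold higher with IL-26 (3.11% of genes) and 8 of 9 in vehicle (2.43%). The part of the local background in the differences was not tested.

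**Figure D4:**
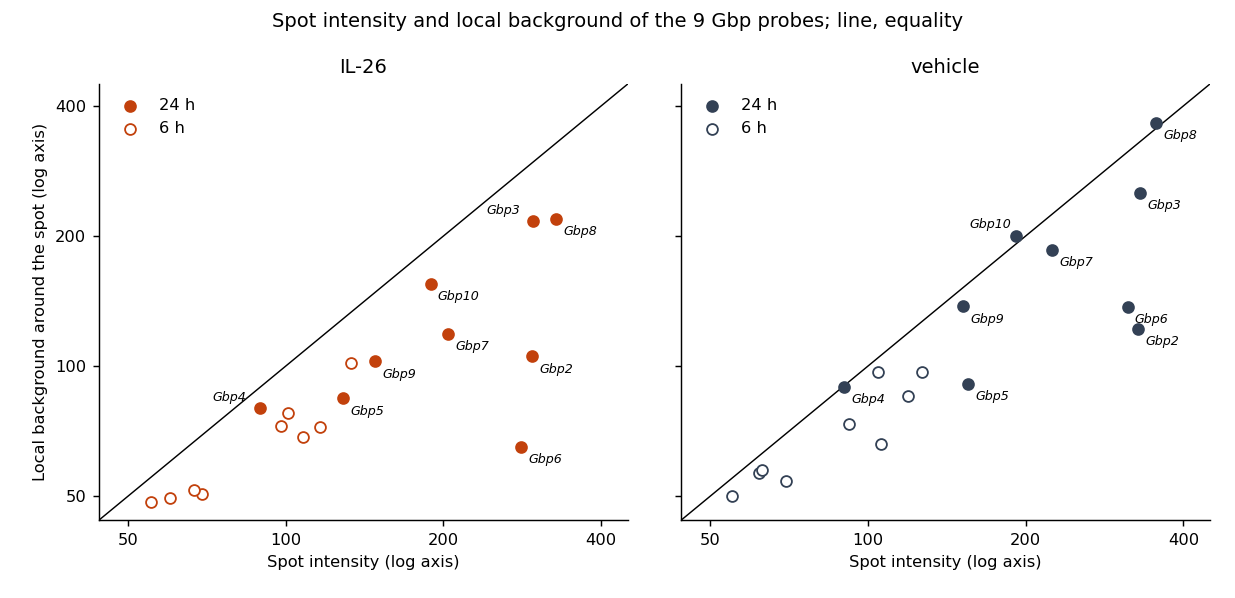
Local background around each GBP spot against the spot intensity (both axes logarithmic, scanner units), IL-26 on the left and vehicle on the right, filled for 24 h and open for 6 h. The line marks equality. Gbp8 and Gbp10 lie on or above it in vehicle at 24 h, and spots that are brighter at 24 h mostly have a higher local background as well.

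The other interferon-inducible GTPases were also higher at 24 h. They comprise the immunity-related GTPases, which also act on parasite vacuoles, and the antiviral Mx proteins. They were listed with earlier results of these arrays known and are described without a test. Of 9 detected, 3 were at least 2-fold higher at 24 h in both treatments, beside 0.648% of all detected genes. Their median was 0.77 with IL-26 and 1.23 in vehicle, led by Ifi47 with an average of 2.15, with Irgm2 at 1.54 and Igtp at 1.53, and Tgtp1 lowest at 0.10.

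The genes that carry the interferon signal did not all move one way. In limma, averaged over both treatments, 4 of 12 detected receptor and signalling genes rose at an adjusted p under 0.05, 2 fell and 6 did not pass, where 14.5% of all detected genes rose and 14.4% fell. These counts, and those below, are not independent of the earlier results. In that fit the arrays of the 2 treatments took the place of replicates for time. Time cannot be told apart there from RNA preparation or array, so the counts are a description. Stat2 read 540 with IL-26 and 559 with vehicle at 24 h, against 99.1 with IL-26 and 109 with vehicle at 6 h, an average difference of 2.44. Its partner Irf9 rose by 1.12, the transcription factor Irf1 by 0.69 and Irf8 by 0.24. The type I interferon receptor chains Ifnar1 and Ifnar2 were lower at 24 h, with averages of -0.41 and -0.20.

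Of 13 detected interferon genes, 1 rose, 3 fell and 9 did not pass, again beside 14.5% and 14.4% of all detected genes. The one that rose, Ifna9, differed by 0.02 with IL-26 and 0.34 in vehicle. Ifna14 fell furthest, at an average of -0.33. Ifna1 read 128 with IL-26 and 128 with vehicle at 24 h, against 137 with IL-26 and 143 with vehicle at 6 h. Ifnb1, the interferon beta gene, read 75.3 with IL-26 and 80.8 with vehicle at 24 h, against 84.6 with IL-26 and 83.9 with vehicle at 6 h, and was among those that fell, at -0.13. Ifng, which encodes interferon gamma, stayed between 59.7 and 62.4 on the 4 arrays. The interferon gene family is closely related in sequence and its single members are uncertain on an array.

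Genes of the systems with which GBPs work were counted in the same way, against the same 14.5% and 14.4%. Of 9 detected inflammasome genes, 2 rose, the lipopolysaccharide-sensing caspase Casp4 by 1.45 and the pore protein gene Gsdmd by 0.26. The other 7 did not pass, with Nlrp3 at 0.10, Casp1 at 0.07 and Il18 lowest at -0.18. Conjugation of ATG8 proteins directs GBPs to vacuoles. Of 9 detected genes of that system Gabarapl1 rose by 1.16, while Atg5 and Atg7 fell, at -0.48 and -0.45, and 6 did not pass. Of 6 genes for attaching and finishing prenyl anchors, the protease genes Rce1 and Zmpste24, whose products act after the lipid is attached, fell, at -0.33 and -0.32. The other 4 did not pass, among them Fnta, Fntb and Pggt1b for the enzymes that attach the lipid. Of 2 detected atlastins, the dynamin relatives nearest to GBPs in structure, Atl1 rose by 0.20 and Atl3 was at -0.03. No gene of these lists was called for IL-26. The counts for the lists rest on the correction by blank spots and were not recomputed with local background.

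**Figure D5:**
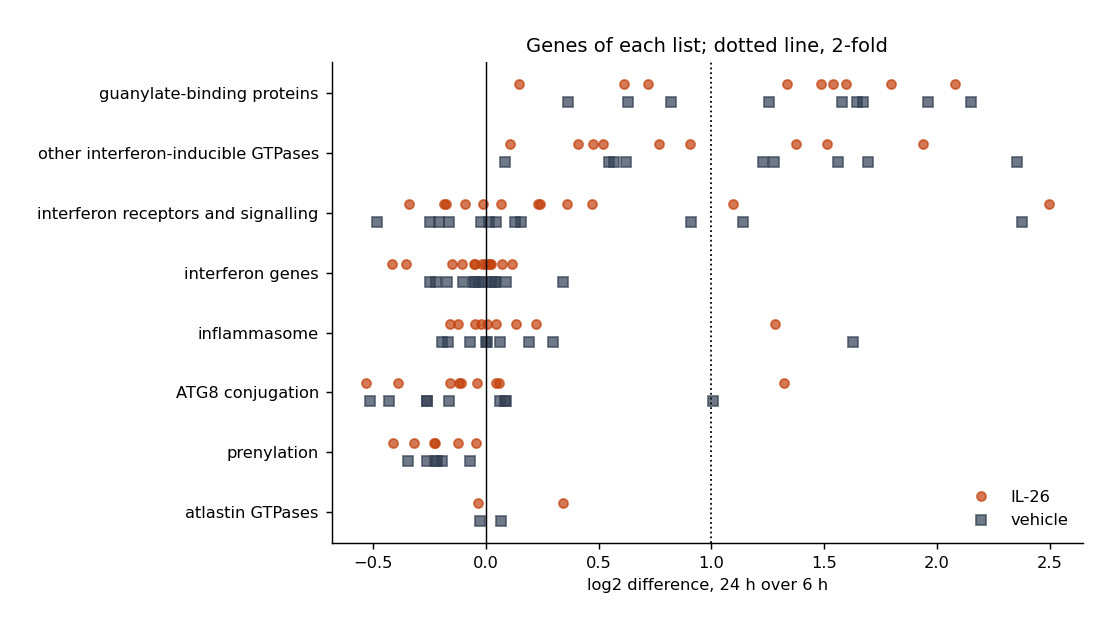
Difference between 24 h and 6 h on the log2 scale for the detected genes of each list, circles for IL-26 and squares for vehicle (1 array per group), with a dotted line at 2-fold. The GBPs and the other interferon-inducible GTPases lie to the right of 0, while the interferon genes and the prenylation genes lie around or below it.

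Among 16919 other genes detected on all 4 arrays, likeness to the average GBP profile was measured as the distance between centred log2 values over the 4 arrays. The nearest was Fabp4, a fatty acid binding protein gene, at a distance of 0.063. It read 305 with IL-26 and 323 with vehicle at 24 h, against 124 with IL-26 and 133 with vehicle at 6 h. Parp12, an interferon-inducible ADP-ribosyltransferase gene, followed at 0.072, and Rtp4, another interferon-inducible gene, at 0.108. Between them stood H2ac15, Gm3417, Herpud1, Nfkbie and Mafk. With 4 arrays and a pattern made mostly of the time difference, many genes come close, and the order among them is a description only.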

How the data were processed

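The deposited scanner files of 4 TORAY 3D-Gene arrays gave, per spot, an intensity and a local background, not normalised by the authors. A second table held normalised intensity values made by the authors, each array set to a median of 25, on a linear scale, with the method not given in the sources used here. The median spot intensity was corrected by normexp from 384 blank spots (limma 3.58.1, R 4.3.3, offset 50), taken to log2, quantile normalised over 4 arrays and averaged over the probes of a gene. Probe symbols came from the platform annotation and were updated through gene identifiers for 20556 probes and through accessions for 9, and 125 kept the platform symbol. A gene was detected where it exceeded the blank mean plus 2 SD on at least 1 array, which left 18372 genes.

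IL-26 was tested in limma with time as a covariate (1 residual degree of freedom, variance trend), with Benjamini-Hochberg adjustment over all detected genes, called at an adjusted p of 0.05. The same fit and threshold gave the counts of list genes that rose or fell with time, without replicate arrays at either time. Differences at 1 time or in 1 treatment had 1 array per group and no test. The number of arrays, not depth, limits precision. The fit was tested on simulated data. Each member is named with its values on all arrays. From each list some genes are named, and these are not always the ones with the highest and lowest difference with time. The members and lists were chosen with earlier results of these data known. Promoter windows and gene order came from RefSeq (GRCm38.p6 for the windows), and the files were handled with Python 3.11.15, pandas 2.3.3 and matplotlib 3.10.9. Alternatives changed the background, offset, scaling, filter, probe choice and variance model.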

Additional observations from a re-analysis of the deposited data

Results flagged for a closer look

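For 7 of the 9 GBPs the IL-26 array lay on opposite sides of vehicle at 24 h and at 6 h, with 1 array per group, so that the difference between times was not tested. The share of all detected genes with opposite signs was not computed, so nothing about the family is read from this count. Given as the log2 difference of IL-26 over vehicle at 24 h minus that at 6 h, the values were -0.16 for Gbp2, -0.076 for Gbp3, -0.22 for Gbp5, -0.0709 for Gbp6, -0.21 for Gbp7, -0.17 for Gbp8 and 0.0811 for Gbp9. Each of the single differences behind them was at most 0.17 in size, and 95% of all detected genes were within 0.22 in size at 24 h and 0.20 at 6 h. By sign, Gbp5 at 24 h lay just below the 5th percentile of all detected genes, and Gbp7 and Gbp8 at 6 h lay just above the 95th.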

How the results depend on the processing

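None of the 9 members was called for IL-26 under the original setting or any of its 10 alternatives, with adjusted p-values between 0.262 and 1. Where spots beside bright spots were left out, 7 members were tested, without Gbp2 and Gbp9. The genes called in all ranged between 0 (no variance trend) and 263 (local background subtracted), beside 90 in the original setting. Gbp10 had an unadjusted p of 0.031 with local background subtracted and 0.0297 with the authors' values. With local background subtracted, the median difference with time was 0.510 with IL-26 and 0.169 in vehicle, and the median for IL-26 over vehicle was 0.139 at 24 h and -0.0704 at 6 h, on the other side of 0. With an offset of 16 the medians with time were 2.01 with IL-26 and 2.08 in vehicle, and with the authors' values 2.63 and 2.73. A move of up to 0.107, set from the fitted SD of the members, was counted as the same. Median scaling, no background correction, genes detected on all 4 arrays and the brightest probe kept all these medians within that limit. An offset of 16 and the authors' values kept those for IL-26 over vehicle within it. The medians were not computed without the filter, without the variance trend or without spots beside bright spots. Pairing by replicate was not possible because the labels give no replicate numbers and each group has 1 array. With time in the model, the fit for IL-26 compared the treatments within each time. Leaving out an array leaves no residual degree of freedom. Gbp4 and Gbp9 at 6 h are limited by their signal over background.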
